A study of Mus musculus with 8 samples.

Results

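The vehicle-treated baseline of a mouse acute myeloid leukemia (AML) driven by the RUNX1-RUNX1T1 fusion was described from its 4 Vehicle samples. They were chosen by their labels alone and are 4 of the 8 RNA-seq samples of the series. The other 4 came from mice given AG636, an inhibitor of the pyrimidine synthesis enzyme DHODH, and are not used here. All 54838 genes of the count table were described in these 4 samples, with no treatment contrast.

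The cells carry the RUNX1-RUNX1T1 genotype on a C57BL/6 background and were grown in recipients with the Ptprca allele of the CD45 gene. The labels call the recipients irradiated, while the study's methods state irradiation for its other leukemia models and not for this one. The recipients of the described samples were given vehicle, for 1 day according to a legend of the study. The labels do not state the composition of the vehicle. Leukemic cells were sorted from bone marrow and spleen, and the labels do not say which tissue gave which sample. The study describes the sorted cells as high for cKit, in a legend also as negative for CD11b, so the levels of Kit and of Itgam, which encodes CD11b, were partly set by the gate. The labels do not say that each sample is a separate mouse, and a legend of the study names fewer mice than samples, so the SD over 4 samples may in part be technical. All samples derive from 1 transplanted leukemia model, and a value here describes that model and not AML in general.

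RUNX1 is a transcription factor that blood stem cells need in order to form, and its fusion with the corepressor RUNX1T1 (ETO) is one of the recurrent lesions of human AML. Blood progenitors choose between lineages through a small set of transcription factors. GATA1 and KLF1 drive red cell genes, GATA2 serves stem cells, mast cells and basophils, and PU.1 (Spi1) and the C/EBP factors drive granulocyte and monocyte genes.

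These cells carried high levels of GATA-factor transcripts and of early red cell genes, together with 3 strong mast cell and basophil transcripts. The red cell transcripts led by Car1 reached 2502 CPM, and the mast cell and basophil transcripts were led by Hdc at 1033 CPM. Mpo, the main enzyme of granulocyte granules, was at 3.09 CPM, and no read was counted for Cebpa. Of the marker genes of NK cells, stroma, B cells and neutrophils, 0%, 6.25%, 27.3% and 40.9% reached 1 CPM in all 4 samples. Over all genes of the table this share was 19.3%. One sample, Vehicle 4, differed from the other 3 by more than they differed from each other.

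Levels are given in CPM, the count of a gene divided by the total of its sample and multiplied by 1000000. The library kit is made to read the 3′ end of polyadenylated transcripts, so that a transcript gives about 1 read position whatever its length. CPM is therefore used here to compare genes as well as samples. Whether all reads came from such ends was not tested. Over the detected genes, gene length and mean CPM had a Spearman correlation of 0.206 across genes, which are not independent replicates. Errors are the SD over the 4 samples (n = 4). A gene was taken as detected when it reached at least 1 CPM in all 4 samples and low when it stayed under 1 CPM in all 4.

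The 4 libraries held 6586446 to 7162036 counts, and 16199 to 17271 genes had at least 1 count in a sample. At these depths a gene without a read has an upper limit of 3 counts, or 0.419 to 0.456 CPM. These limits cover counting error only, because reads were not counted by molecule. Of the table's genes 10580 were detected (19.3%), 42460 were low and 1798 lay between. Counts of detected list members are to be read against this share. The share is low in part because 34003 of the table's genes had 0 counts in all 4 samples. The lists were chosen with earlier results of these data known, so a list share above 19.3% is a description and no test.

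Vehicle 4 stood apart. Spearman correlations of CPM with the other samples were 0.982 to 0.984 for Vehicle 4, against 0.992 to 0.993 among Vehicle 1 to 3. Pairs of samples differed beyond sampling noise by a chi-square per degree of freedom of 3.69 to 4.27 among the first 3 and of 8.52 to 12 with Vehicle 4, so no library was a duplicate of another. Vehicle 4 was outside the range of the others and at least 2-fold from their mean (1 CPM added to both) in 131 of 8401 genes, 117 of them lower and 14 higher, compared with 4 to 11 genes for each other sample. The labels give no tissue or batch that would set it apart. Vehicle 4 was the highest sample in 40.1% and the lowest in 27.8% of the 8064 genes with a mean of at least 10 CPM, and in 36.7% and 28.9% of the 10580 detected genes. Counts of list members that were highest or lowest in Vehicle 4 are to be read against these shares. A value given only as a mean includes Vehicle 4.

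The most abundant transcripts were those of the mitochondria and of protein synthesis. The gene with the highest level was Gm42418, annotated as a lincRNA at chr17:39846958-39848788 (GRCm38), with 79501, 73436, 58893 and 57328 CPM in Vehicle 1 to 4. Which RNA gave these reads was not tested, and the annotation alone does not show that a lincRNA did. Its share of all counts was 5.73% in Vehicle 4 (Wilson 95% interval 5.71 to 5.75%) and 7.95% in Vehicle 1 (7.93 to 7.97%), intervals that cover counting error only. Genes of the mitochondrial chromosome took 7.77% ± 0.232 of counts and the 80 cytosolic ribosomal protein genes 7.84% ± 0.268. Both shares were nearly the same in every sample.

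Among the 20 highest genes 7 were mitochondrial (mt-Rnr2, mt-Rnr1, mt-Nd4, mt-Cytb, mt-Nd1, mt-Nd2 and mt-Co1) and 5 were ribosomal protein genes (Rpl32, Rplp1, Rps9, Rps14 and Rps29). The remaining ones besides Gm42418 were Actb, Hsp90ab1, Tuba1b, Pabpc1, Eef2, Gpx1 and Tpt1, which encode cytoskeleton, a chaperone, translation factors and an antioxidant enzyme. These 20 genes took 18.4% ± 1.08 of all counts, and the 1000 highest genes took 60.7% ± 0.484. At the other end, 9549 genes had a count but a mean under 1 CPM, and together they held 0.215% of counts. The median over all 20835 genes with a count was 1.87 CPM, which serves below as the level of an ordinary gene.

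**Figure D1:**
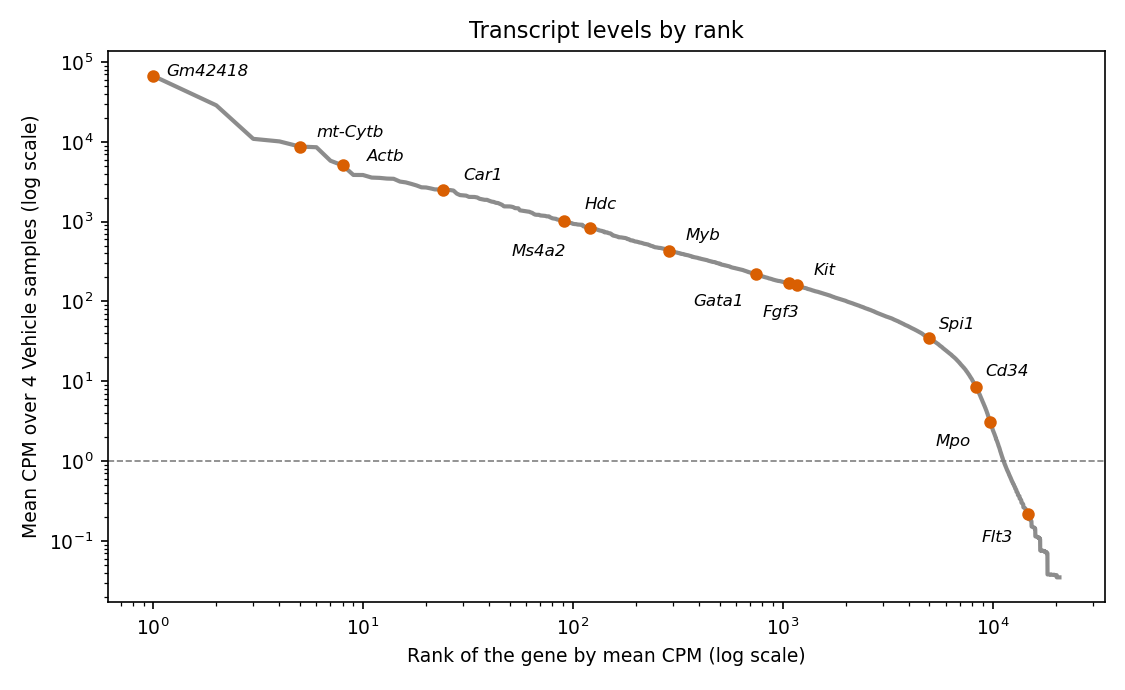
Mean CPM over the 4 Vehicle samples (log scale) against the rank of each gene (log scale), with a line for all genes with a count and points for 14 named genes, and a dashed line at 1 CPM. Car1 stands at rank 24 among mitochondrial and ribosomal protein genes, Fgf3 and Kit at ranks 1066 and 1164, Mpo at 3.09 CPM and Flt3 under 1 CPM.

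The first gene on the list that marks a cell type was Car1, at rank 24. Car1 encodes carbonic anhydrase I, an enzyme made in large amounts by early red cell progenitors, and lies at chr3:14766216-14808368 on the minus strand. It measured 2701, 2413, 2492 and 2399.9 CPM in Vehicle 1 to 4, with a mean of 2502 ± 139. The neighboring Car2, at chr3:14886273-14900770 on the plus strand, encodes carbonic anhydrase II and measured 1267, 1217, 1412 and 1559 CPM. Both were high in all 4 samples, and their ranges did not overlap.

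Kit, the stem cell factor receptor used in the sort (chr5:75574916-75656722, plus strand), was at 151, 171, 159 and 154 CPM. Its mean of 159 ± 8.77 CPM put it at rank 1164, and its CV (the SD as a percentage of the mean) was 5.52%. Fgf3, a secreted fibroblast growth factor best known from embryonic development (chr7:144838083-144844436, plus strand), was at 163, 178, 213 and 121 CPM. Vehicle 3 was the highest and Vehicle 4 the lowest for Fgf3, and the mean of 169 ± 38.3 CPM was close to that of Kit.

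Regulators of blood stem and progenitor cells were present in large part. Of the 22 in the list 15 were detected (68.2%, against 19.3% of all genes in the table), with a list median of 46.2 CPM. Myb, needed by dividing progenitors, led with 372, 486, 429.7 and 454 CPM. Gata2, a regulator of stem cells and mast cells, measured 345, 389.9, 401 and 304 CPM. Tal1 and Lmo2, which bind DNA together with GATA factors in 1 complex, averaged 339 ± 21.1 and 335 ± 12.9 CPM. Vehicle 4 was the lowest for Gata2 and Tal1 but not for Myb.

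Further members were lower but clear. Ikzf1, a lymphoid and progenitor factor, averaged 199 ± 4.37 CPM and Hhex 143 ± 9.38 CPM. The ETS factor Fli1, which serves platelets and stem cells, measured 152, 144, 155 and 108 CPM. Erg, the ETS factor closest to Fli1, was low at 0.698, 0.446, 0 and 0.301 CPM, and Mecom, a gene of quiescent stem cells, was low at 0.14, 0, 0.152 and 0.301 CPM. No count was seen for Mycn. Meis1, a partner of HOX proteins in many leukemias, was at 0.419, 2.08, 1.82 and 2.41 CPM, under 1 CPM only in Vehicle 1.

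The family of the fusion partners was also expressed. Of its 7 genes 6 were detected. Runx1 measured 291, 240.0, 276 and 214 CPM and its binding partner Cbfb 189, 185, 202 and 166 CPM. Runx1t1, the other partner of the fusion and a gene that is normally quiet in blood cells, had 11.2, 11.4, 10.5 and 18.2 CPM and was highest in Vehicle 4. Whether reads of the fusion transcript were counted at Runx1, at Runx1t1 or at neither cannot be told from these counts, since a 3′ read shows only the end of a transcript. Cbfa2t3 (ETO2), a corepressor of the GATA and TAL1 complex, had the highest mean of the family, with 277, 345, 310.2 and 219 CPM. Runx3 averaged 99 ± 16 CPM, and Runx2, a bone regulator, was at 1.68, 1.49, 0.759 and 0.752 CPM. The sum over the 7 genes was 894, 918 and 925 CPM in Vehicle 1 to 3 and 720.0 CPM in Vehicle 4.

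HOX genes, which are high in many human AMLs, were almost silent here apart from 1 cluster. The Hoxa cluster gave 1 or 2 counts per sample over 11 genes, and Hoxa9 and Hoxa10 gave 0. No count fell in any of the 9 Hoxd genes, and the Hoxb cluster gave 3 to 6 counts per sample over 10 genes. In the Hoxc cluster 3 of 9 genes were detected, with 402 to 697 counts per sample in all. Hoxc4 measured 47.3, 58.4, 44.8 and 77.8 CPM and Hoxc5 8.52, 9.95, 6.83 and 20.3 CPM, both highest in Vehicle 4. Hoxc5 shares its interval and strand with Hoxc6 and Hoxc9, so reads could be split between them. The cofactor Pbx3 was detected at 57.9 ± 5.58 CPM.

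**Figure D2:**
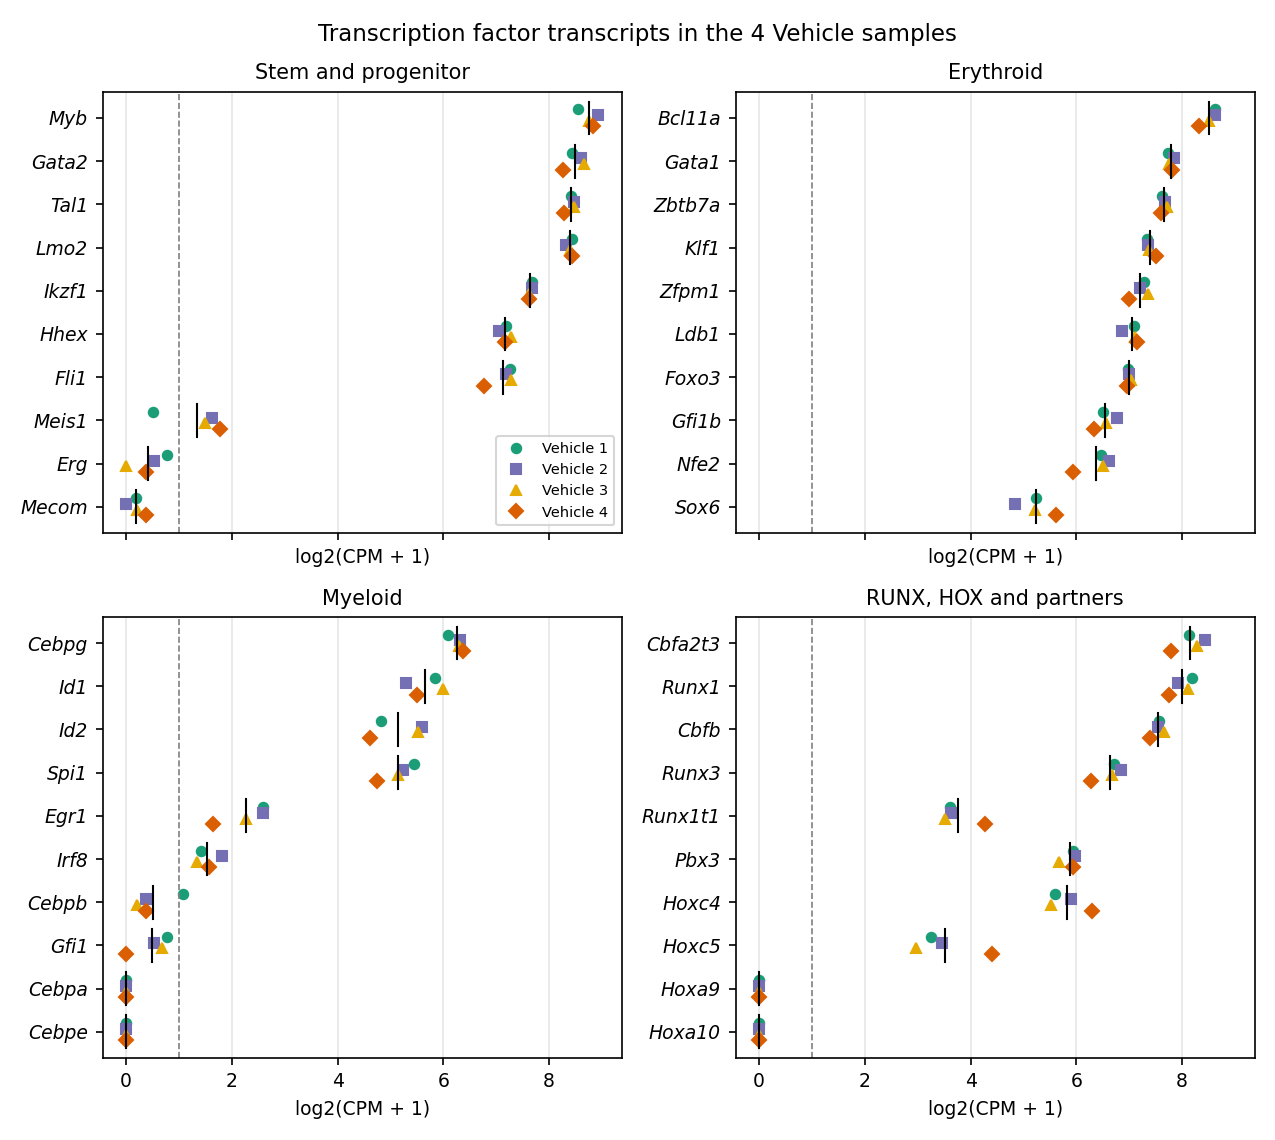
Transcript levels of 40 transcription factors and partners on a log2(CPM + 1) scale, with 1 symbol per Vehicle sample, a black bar for the mean of the 4 log values and a dashed line at 1 CPM. Stem cell and erythroid factors lie well to the right of the line, while Cebpa, Cebpe, Hoxa9 and Hoxa10 lie at 0 in every sample.

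The factors that drive granulocytes and monocytes differed widely in level. Of 19 myeloid transcription factors 7 were detected (36.8%, against 19.3% of all genes in the table), with a list median of 0.55 CPM. Cebpa and Cebpe, needed to make granulocytes, had 0 counts in all 4 samples, which allows up to 0.419 to 0.456 CPM. Gfi1 was low at 0.698, 0.446, 0.607 and 0 CPM and Cebpb reached 1 CPM only in Vehicle 1. Spi1, which encodes PU.1, was detected at 42.7, 36.7, 34.5 and 25.7 CPM, and Irf8, a monocyte and dendritic cell factor, was at 1.68, 2.52, 1.52 and 1.96 CPM. The highest of the list were Cebpg and the inhibitor Id1, at 76.1 ± 6.51 and 50.4 ± 11.3 CPM, both of them made in many cell types.

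Levels of the products of those lineages bear on the label AML cells. In bulk samples fewer cells of a type and less RNA per cell cannot be told apart. Mpo measured 3.21, 3.71, 2.43 and 3.01 CPM, from 16 to 25 counts per sample, and the granule proteases Elane and Prtn3 averaged 1.14 ± 0.89 and 2.07 ± 0.394 CPM. S100a8 and S100a9, which neutrophils hold in very large amounts, were the highest of the list at 35.6, 38.8, 17.3 and 34.7 CPM and 36.4, 39.2, 17.5 and 26.5 CPM, both lowest in Vehicle 3. Ly6g had 0 counts in all 4 samples and Itgam was at 0.14, 0.594, 0.152 and 0 CPM, which the sort against CD11b set in part. Of 22 granule and neutrophil genes 9 were detected (40.9%) and 6 were low, and their sum ranged from 62.7 CPM in Vehicle 3 to 130.1 CPM in Vehicle 2. Among 19 monocyte and macrophage markers 4 were detected (21.1%) and 11 were low, and the defining Csf1r, Adgre1 and Cd14 averaged 1.29 ± 0.339, 0.256 ± 0.179 and 0.144 ± 0.167 CPM.

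Red cell factors were higher. Of 11 erythroid regulators, most of them transcription factors, 10 were detected and 7 exceeded 100 CPM, with a list median of 132 CPM. Gata1 measured 211, 229, 215 and 223 CPM and Klf1, the activator of globin and membrane genes, 160.2, 162, 164 and 181 CPM. The GATA1 cofactor Zfpm1 (FOG1) averaged 147 ± 15.5 CPM and the repressor Gfi1b 92.7 ± 12.1 CPM. Bcl11a, known for silencing fetal globin, was the highest of the list at 367 ± 35.3 CPM. Values of Gata1 differed by little between samples, and Vehicle 4 was within the range of the others. Trim58, which late red cell precursors use when they expel the nucleus, had 0 counts.

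Receptors and membrane proteins of red cells were expressed almost in full, with 21 of 22 detected and 19 at or above 10 CPM. Ermap, a red cell surface protein, led with 227, 249.5, 211 and 261 CPM. Rhd, the Rh antigen gene, followed with 181, 183, 179 and 220.1 CPM. The transferrin receptor Tfrc measured 93.5, 88.5, 97 and 135 CPM and the erythropoietin receptor Epor 70, 69.1, 73.5 and 94.2 CPM. All of these were highest in Vehicle 4, which was the highest in 9 and the lowest in 4 of the 19 members at or above 10 CPM. Over all genes of that level it was the highest in 40.1% and the lowest in 27.8%. Band 3 (Slc4a1), which rises late in red cell maturation, was low by comparison at 12.1 ± 2.96 CPM.

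Globin transcripts were high but uneven. Hbb-bs, the adult beta globin, measured 3395, 1772, 3638 and 1010.5 CPM, high in Vehicle 1 and 3 and lowest in Vehicle 4. Hba-a1 measured 1502, 970.4, 1294 and 582 CPM and was likewise lowest in Vehicle 4 and next lowest in Vehicle 2. Hba-a1 and Hba-a2 are near-identical copies, and how reads were shared between them is not stated. The embryonic globins Hbb-y and Hbb-bh1 were low, with means of 0.224 and 0.186 CPM, and Hba-x had 0 counts. Which cells of the sorted samples gave the globin reads was not tested.

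Heme enzymes were read in all 4 samples. Cpox, which acts late in heme synthesis, averaged 808 ± 44.4 CPM, and Fech, which inserts iron, 214 ± 19 CPM. Alas2, the red cell form of the first enzyme, was at 11.6, 5.94, 9.11 and 6.47 CPM and overlaps Apex2 on the other strand. Alas1, the form used by all cells, was at a similar 10.2 ± 2.53 CPM. Of the 23 globin, carbonic anhydrase and heme genes measured 18 were detected, and their sum was 11450, 8628, 11310 and 7926 CPM, with Vehicle 1 and 3 above Vehicle 2 and 4 as for Hbb-bs. Gata1 and Klf1 differed by little between samples, with SDs of 7.87 and 9.51 CPM. A link between their levels and those of the globins was not tested.

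A mast cell and basophil program was visible next to it. Hdc, which encodes histidine decarboxylase, the enzyme that makes histamine, lies at chr2:126593667-126619299 and measured 922, 1154, 1124 and 931 CPM. Ms4a2, the beta chain of the high-affinity IgE receptor, lies at chr19:11615523-11623719 and measured 782, 898, 863 and 772 CPM. Il1rl1, the receptor for interleukin 33 (chr1:40429570-40465415), measured 696, 741, 741 and 690.4 CPM. These 3 genes were high in every sample and made up 93.8% of the summed level of the 13 genes in the list. The sum was 2559, 3009, 2955 and 2479 CPM in Vehicle 1 to 4.

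The rest of the list was much lower. The proteases Cma1 and Cpa3 were at 76.1, 82.1, 101 and 22.1 CPM and 40.6, 92.8, 83.5 and 34 CPM. Fcer1a, the alpha chain that binds IgE, was at 5.31, 3.56, 5.77 and 1.5 CPM, far under Ms4a2. The basophil protease Mcpt8 averaged 1.07 ± 0.447 CPM and the tryptases Tpsb2 and Tpsab1 3.57 ± 1.11 and 0.591 ± 0.127 CPM. Of the 6 members at or above 10 CPM Vehicle 4 was the lowest in 5. The abundant granule proteases of mature mast cells were therefore not at the level of Hdc and Ms4a2 in any sample.

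Promoters of Hdc, Ms4a2, Il1rl1, Gp5, Klf1, Epor and Fgf3 are shown. GATA factors were among the highest regulators, and these genes were read in all samples. Every promoter shown holds a match, and detected genes without one are not shown. Capitals mark the letters GATA where an A or T stands before them and an A or G after them, on either strand, a form that GATA factors are known to prefer. Sequences are RefSeq promoters of GRCm38.p6, from 250 bases before to 50 bases after the RefSeq start, written 5′ to 3′ in the direction of the gene. That start can differ from the gene bounds given above, and the windows of Hdc and Fgf3 lie wholly inside those bounds. They are for Hdc (chr2:126618629-126618928, minus strand), Ms4a2 (chr19:11623670-11623969, minus strand), Il1rl1 (its upstream start, chr1:40429320-40429619, plus strand), Gp5 (chr16:30310732-30311031, minus strand), Klf1 (chr8:84901732-84902031, plus strand), Epor (chr9:21963527-21963826, minus strand) and Fgf3 (chr7:144838362-144838661, plus strand).
Hdc: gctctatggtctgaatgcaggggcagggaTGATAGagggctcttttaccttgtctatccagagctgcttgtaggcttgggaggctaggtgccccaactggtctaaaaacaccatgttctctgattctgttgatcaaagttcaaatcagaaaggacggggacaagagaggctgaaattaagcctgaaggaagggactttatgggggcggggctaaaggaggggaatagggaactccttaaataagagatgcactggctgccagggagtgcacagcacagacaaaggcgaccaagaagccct
Ms4a2: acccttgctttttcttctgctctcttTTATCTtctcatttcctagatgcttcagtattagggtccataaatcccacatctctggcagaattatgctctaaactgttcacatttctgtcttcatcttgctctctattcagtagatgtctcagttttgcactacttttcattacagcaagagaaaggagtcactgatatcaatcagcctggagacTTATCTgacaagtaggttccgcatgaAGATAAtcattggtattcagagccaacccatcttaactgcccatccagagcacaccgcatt
Il1rl1: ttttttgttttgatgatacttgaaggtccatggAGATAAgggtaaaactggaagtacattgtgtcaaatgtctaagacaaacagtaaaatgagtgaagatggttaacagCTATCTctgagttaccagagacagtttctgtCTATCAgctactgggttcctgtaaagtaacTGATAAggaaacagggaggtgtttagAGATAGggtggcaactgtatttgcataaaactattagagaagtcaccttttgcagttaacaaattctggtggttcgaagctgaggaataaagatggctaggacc
Gp5: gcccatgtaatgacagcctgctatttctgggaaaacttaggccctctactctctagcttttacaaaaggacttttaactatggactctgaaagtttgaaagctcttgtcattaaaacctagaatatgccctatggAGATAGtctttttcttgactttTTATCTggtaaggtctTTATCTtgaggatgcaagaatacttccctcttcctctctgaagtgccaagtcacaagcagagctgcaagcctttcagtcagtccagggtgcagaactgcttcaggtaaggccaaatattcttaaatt
Klf1: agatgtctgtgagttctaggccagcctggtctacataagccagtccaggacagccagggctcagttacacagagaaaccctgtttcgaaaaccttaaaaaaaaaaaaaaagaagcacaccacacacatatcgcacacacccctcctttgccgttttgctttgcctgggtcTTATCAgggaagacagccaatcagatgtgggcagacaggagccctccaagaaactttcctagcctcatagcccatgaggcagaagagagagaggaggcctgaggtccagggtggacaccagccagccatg
Epor: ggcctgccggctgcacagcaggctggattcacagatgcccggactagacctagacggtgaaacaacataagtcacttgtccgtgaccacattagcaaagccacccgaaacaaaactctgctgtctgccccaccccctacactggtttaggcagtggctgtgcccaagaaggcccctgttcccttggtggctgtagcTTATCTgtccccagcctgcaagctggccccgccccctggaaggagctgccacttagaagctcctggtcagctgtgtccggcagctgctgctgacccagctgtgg
Fgf3: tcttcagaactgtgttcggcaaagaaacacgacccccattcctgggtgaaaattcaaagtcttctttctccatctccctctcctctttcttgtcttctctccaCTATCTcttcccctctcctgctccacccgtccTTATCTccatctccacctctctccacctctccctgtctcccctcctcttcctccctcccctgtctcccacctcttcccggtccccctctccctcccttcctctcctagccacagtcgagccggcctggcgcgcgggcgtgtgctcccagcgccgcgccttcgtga

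The Il1rl1 window held 5 such matches, Ms4a2 and Gp5 held 3 each, Fgf3 held 2, and Hdc, Klf1 and Epor held 1 each. In Epor and Klf1 the match began 54 and 80 bases before the RefSeq start. Of the detected mast cell and basophil genes with an entry 8 of 8 held a match in at least 1 promoter, and of the detected red cell receptor and membrane genes 11 of 16. Over all RefSeq genes with an entry the share was 33.0% of 27025, and over all promoters 29.8% of 32851. Among detected proliferation genes it was 2 of 15 and among detected stem and progenitor regulators 1 of 11. Genes that were not detected in all 4 samples held matches too, in 2 of 3 mast cell and basophil genes, 4 of 7 stem and progenitor regulators and 5 of 9 megakaryocyte genes, against 3 of 6 detected megakaryocyte genes. A match is only a run of letters and does not show that a factor binds there.

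Platelet and megakaryocyte genes were split. F2r, the thrombin receptor, was high at 512, 459, 526 and 327 CPM and lowest in Vehicle 4. Gp5, a platelet glycoprotein, was even across the samples at 176, 175, 174 and 171 CPM. By contrast Itga2b (CD41) was at 11.3, 15.3, 12.6 and 5.57 CPM, Pf4 averaged 2.48 ± 2.27 CPM and Vwf 0.701 ± 0.888 CPM, and the platelet tubulin Tubb1 had 0 counts. Of the 20 genes of the list 7 were detected (35%, against 19.3% of all genes in the table), and F2r alone gave 62.8% of the summed level. Of the 5 defining markers 1, Itga2b, was detected.

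**Figure D3:**
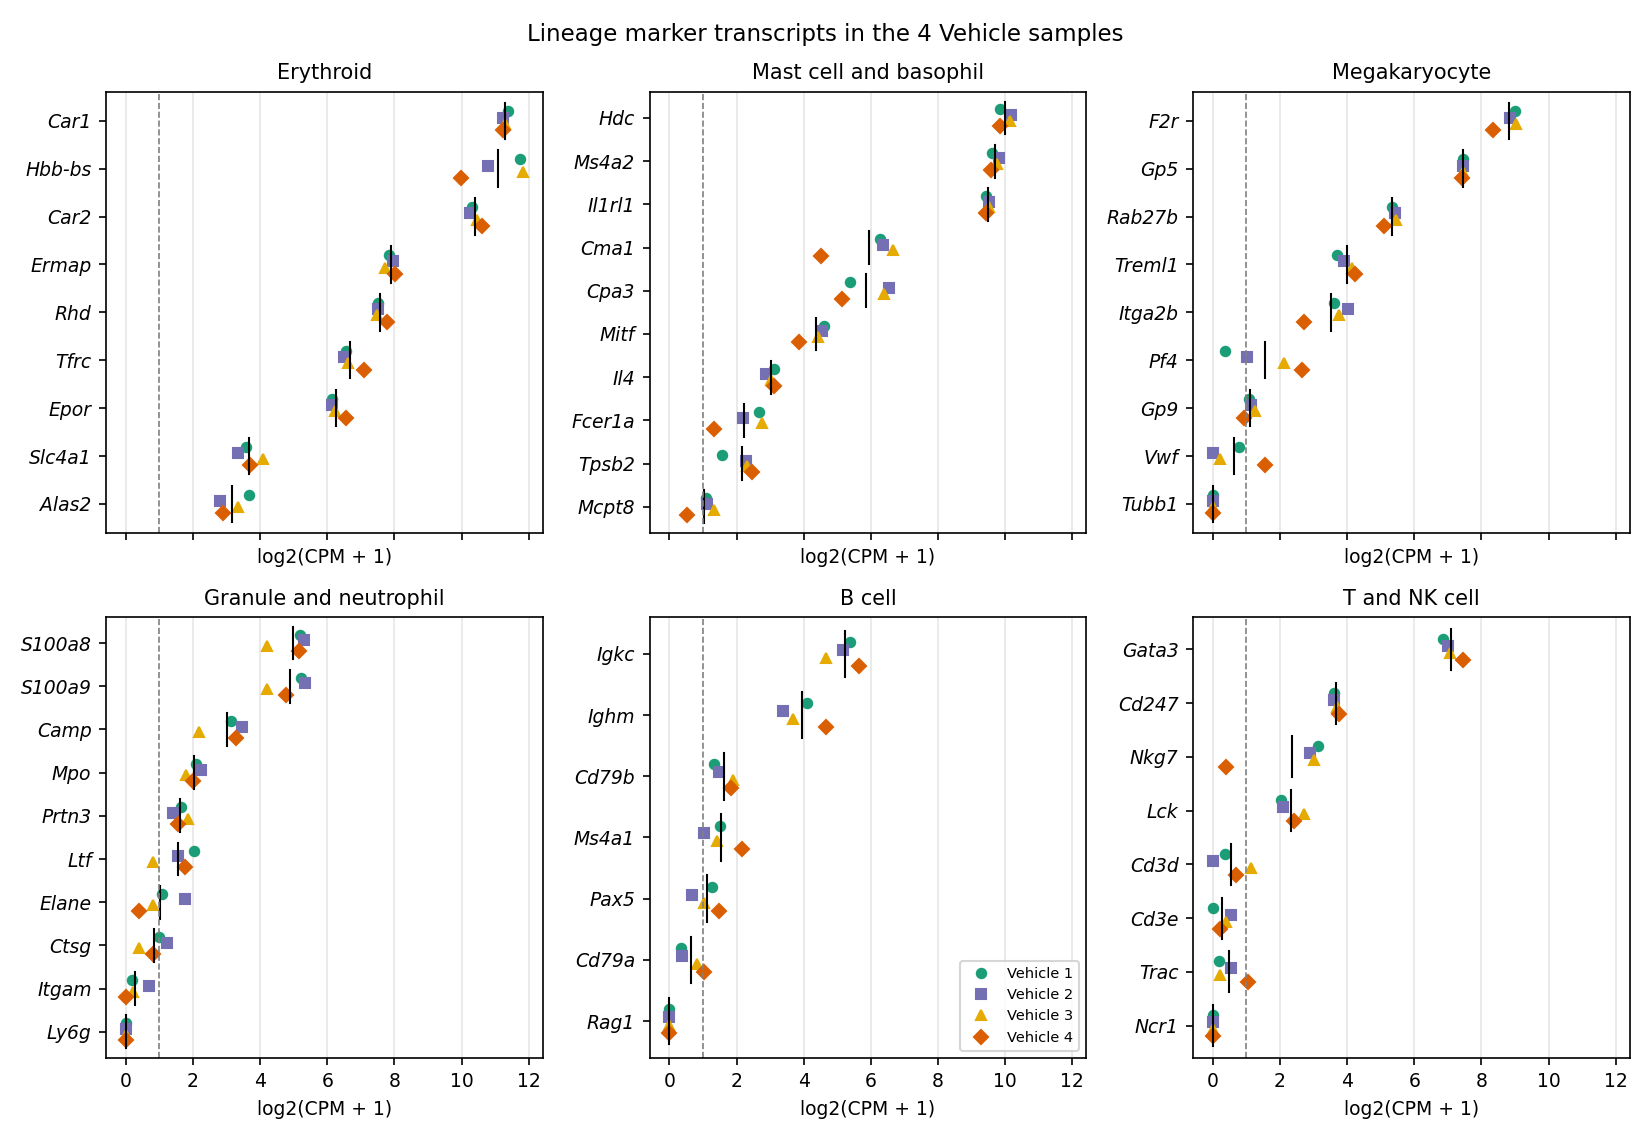
Levels of lineage markers in 6 panels on a log2(CPM + 1) scale, with 1 symbol per Vehicle sample, a black bar for the mean of the 4 log values and a dashed line at 1 CPM. Red cell markers and Hdc, Ms4a2 and Il1rl1 lie far to the right, and most neutrophil, B, T and NK cell markers lie near or left of the line.

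Markers of other lineages summed to a low level. The samples were leukemic cells sorted as high for cKit, so the sort limited in advance what mature markers of these lineages could show. Across 8 lists of granule and neutrophil, monocyte, dendritic cell, eosinophil, B, T, NK and stromal markers, 30 of 136 genes were detected, 71 were low and 20 of the low ones had 0 counts. This share is near the 19.3% detected among all genes measured, so the count by itself does not set these lists apart. The summed level of all 136 genes was 438 ± 54.2 CPM, less than that of Hdc alone. The largest contribution was that of Gata3.

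Gata3, a T cell factor that is also made by mast cells and other progenitors, measured 115, 128, 134 and 175 CPM and gave 84.8% of the T cell sum. Among listed genes of the T cell receptor complex, Trbc2 averaged 2 ± 1.06 CPM and Cd3e measured 0, 0.446, 0.304 and 0.15 CPM. Cd3d averaged 0.524 ± 0.522 CPM and Trac 0.447 ± 0.428 CPM. Tcrg-C1, a T cell receptor gamma chain gene outside the list, was higher in Vehicle 1 to 3, at 30.86, 13.96, 12.15 and 0.4513 CPM. No defining T cell marker of 5 was detected. Cd247, a signaling chain of T and NK cells, was at 11.7 ± 0.607 CPM and overlaps the more abundant Pou2f1 on the other strand.

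Of 22 B cell genes 6 were detected (27.3%, against 19.3% of all genes in the table). Antibody chains led, with Igkc at 40.9, 34.9, 24.6 and 48.9 CPM and Ighm at 16.2, 9.36, 11.8 and 24.2 CPM, both highest in Vehicle 4. The surface markers Cd79a and Ms4a1 averaged 0.597 ± 0.376 and 2 ± 1.03 CPM, and the recombinase Rag1 had 0 counts. Which cells of the sorted samples gave these reads was not tested.

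NK cell markers were not detected at all by the rule used (0 of 14). Nkg7, a granule protein that gave most of their sum, was at 7.68, 6.39, 6.98 and 0.301 CPM and nearly absent from Vehicle 4. For eosinophils 1 of 9 genes was detected, Siglecf, at 9.49, 12, 8.65 and 4.21 CPM and lowest in Vehicle 4, while Epx had 0 counts. Stromal and endothelial genes gave 1 of 16, Kdr, at 1.9 ± 0.808 CPM, with Cxcl12 at 0 counts. Dendritic cell genes gave 5 of 14 and were led by Zbtb46 at 29.2, 30.4, 33.7 and 34.1 CPM, whereas Xcr1 had 0 counts and Siglech and Clec9a were low. The highest sum of these 4 lists was 70.6 CPM, for the dendritic cell genes in Vehicle 4.

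Of 44 growth factor and cytokine receptors 24 were detected (54.5%, against 19.3% of all genes in the table). After Kit the highest of this list were Csf2rb, the shared beta chain for interleukin 3, interleukin 5 and GM-CSF, at 181, 162, 169 and 96 CPM, and Il2rg, the common gamma chain, at 146, 161, 140.4 and 118 CPM. Il1rl1, kept in the mast cell list, was above all of them. Igf1r averaged 106 ± 17.8 CPM and Fgfr1, a receptor for fibroblast growth factors, 67.5 ± 11.9 CPM. Several receptors known from myeloid leukemia were low or unread. Flt3 averaged 0.217 ± 0.134 CPM, Csf3r 0.25 ± 0.307 CPM and the interleukin 3 receptor alpha chain Il3ra 0.285 ± 0.376 CPM, and Fgfr2 and Fgfr4 had 0 counts. In 11 of the 20 receptors at or above 10 CPM Vehicle 4 was the lowest sample, against 27.8% of all genes of that level.

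Of 60 surface antigens and adhesion molecules 37 were detected (61.7%, against 19.3% of all genes in the table). Cd47, the signal that protects cells from being engulfed, was in the lead at 714, 582, 629 and 463 CPM. Spn (CD43) measured 599.5, 579, 632 and 387 CPM and Cd24a 642, 531, 603 and 411 CPM. Itgb1, Ly6e and Cd59a followed at 469.8 ± 25.6, 432 ± 58.8 and 416 ± 40.1 CPM. These abundant antigens are shared by many blood cells and mark no lineage by themselves.

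Markers used to define stem and progenitor cells were weak. Cd34 measured 9.63, 12.2, 9.26 and 2.41 CPM, much lower in Vehicle 4 than in the others. Ly6a (Sca-1) averaged 0.481 ± 0.287 CPM, Slamf1 (CD150) 2.59 ± 0.915 CPM and Cd48 0.831 ± 0.686 CPM, and Procr had 0 counts. Ptprc (CD45), a protein carried by nearly all white blood cells, was at only 1.95, 3.42, 1.97 and 7.82 CPM, highest in Vehicle 4. Reads that fall beyond the annotated 3′ end of a gene are not counted, and this was not tested for Ptprc. Fcgr3, which helps to mark granulocyte and monocyte progenitors, was at 39.9, 41.6, 48.6 and 13.4 CPM. In 19 of the 27 surface genes at or above 10 CPM Vehicle 4 was the lowest, while over all 8064 genes of that level it was the lowest in 27.8%.

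Of 22 fibroblast growth factor ligands 4 were detected (18.2%, against 19.3% of all genes in the table), so the count by itself does not set this list apart. After Fgf3 came Fgf2 at 25, 29.4, 28.1 and 29.9 CPM, Fgf10 at 9.31 ± 1.02 CPM and Fgf13 at 2.77 ± 0.343 CPM. Fgf2 overlaps Nudt6 on the opposite strand, and strand use in counting is not stated. Fgf4 and Fgf15, the neighbors of Fgf3 in the genome, were at 0 counts and at a mean of 0.62 ± 0.634 CPM. No count was seen in any sample for 11 of the ligands, and Fgf3 was the only ligand above 100 CPM.

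The cells carried a full cell division program. All 18 proliferation genes were detected, against 19.3% of all genes in the table, with a list median of 229 CPM. Top2a, which untangles DNA before mitosis, measured 1076, 1196, 1079.6 and 1427 CPM and Mki67 855, 947, 818 and 1058 CPM. The replication helicase genes Mcm7, Mcm6 and Mcm3 averaged 467 ± 24.3, 405 ± 14.5 and 347 ± 9.03 CPM. Vehicle 4 was the highest sample in 17 of the 18 genes, while over all genes at or above 10 CPM it was the highest in 40.1%. Their sum was 5571, 5822 and 5474 CPM in Vehicle 1 to 3 and 6736 CPM in Vehicle 4.

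As a check on foreign cells, X- and Y-linked genes were read. Xist, which only cells with an inactive X chromosome make, was at 1.95, 2.82, 2.43 and 3.16 CPM, and each of the 4 Y-linked genes listed had at most 1 count in any sample. The sexes of leukemia and recipients are not given in the labels.

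The spread between samples was small for most genes. For the 8064 genes with a mean of at least 10 CPM the median coefficient of variation (CV) was 8.94%, compared with 5.56% from counting error alone, and 6.67% without Vehicle 4. A CV above 25% was seen in 315 genes (3.91%) and one under 10% in 4627 genes (57.4%). The CV fell with level, from a median of 12.4% at 10 to 30 CPM to 5.88% at 300 CPM or more. Across these genes the common biological coefficient of variation estimated by edgeR was 10.4%. It was 6.01% without Vehicle 4 and 11.3 to 11.9% without any other sample, so 1 library decided this value.

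**Figure D4:**
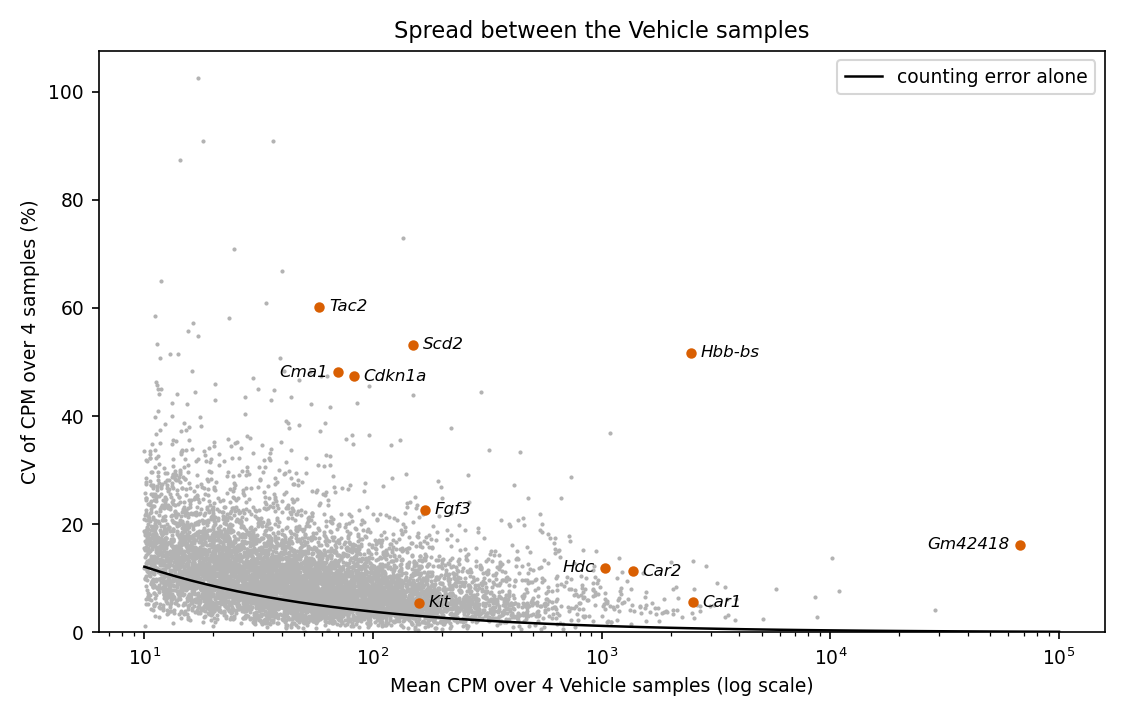
Coefficient of variation of CPM over the 4 Vehicle samples, in percent, against mean CPM (log scale) for genes with a mean of at least 10 CPM, with the line that counting error alone would give. Kit (5.52%) and Car1 (5.56%) lie among the bulk of genes, Car2 (11.3%) and Hdc (12%) above the median of their level, and Tac2, Scd2 and Hbb-bs far above.

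Tac2, Scd2, Cdkn1a and Slc7a8 were among the 10 most uneven genes with a mean of at least 50 CPM. Tac2, which encodes neurokinin B, measured 39.5, 36.4, 46.6 and 110.4 CPM, and Scd2, a fatty acid desaturase, 102, 121, 108 and 269.5 CPM, both highest in Vehicle 4. The cell cycle inhibitor Cdkn1a measured 118, 66.5, 111 and 34.7 CPM and the amino acid transporter Slc7a8 69.5, 70.8, 79.7 and 17.75 CPM, both lowest there. Hbb-bs, Col18a1, Cma1, Cpa3 and Cpt1a were also among these 10, and Vehicle 4 was the lowest in each of these 5. Among the most even genes Rasa2, Bms1, Fam76b and Srsf11 had CVs of 0.16% to 0.663%, below the counting error of their levels. These CVs are for CPM by the column total, and the SD of each of these genes was larger with TMM scaling.

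Genes of fat metabolism were among those in which Vehicle 4 stood apart, and lists of these and of further groups were written after the values had been seen. Of 25 genes of fatty acid oxidation and ketone synthesis 20 were detected, and Vehicle 4 was the lowest in 14 of them and the highest in 2, against 28.9% and 36.7% of all detected genes. Cpt1a, which admits fatty acids to mitochondria, measured 116, 119.9, 119 and 30.4 CPM and Hadh, an enzyme of the oxidation cycle, 271, 247, 262 and 95.8 CPM. The carrier Slc25a20 measured 56.3, 48.1, 55.3 and 15.8 CPM. The sum of the list was 2279, 2125 and 2236 CPM in Vehicle 1 to 3 and 1406 CPM in Vehicle 4. Other members, such as Cpt2 at 24, 24.8, 25.7 and 26 CPM and Decr1 at 155, 179, 160.0 and 153 CPM, were close to even.

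Genes of fatty acid synthesis and lipid uptake ran the other way. Of 12 detected genes Vehicle 4 was the highest in 11 and the lowest in 1, Acss2, against 36.7% and 28.9% of all detected genes. Scd1, a desaturase like Scd2, measured 9.91, 14.6, 5.62 and 42 CPM. Fasn, the fatty acid synthase, was nearly level at 86.7, 99.2, 110.1 and 112 CPM. The list summed to 709, 739 and 754 CPM in Vehicle 1 to 3 and to 1065 CPM in Vehicle 4.

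Further genes of the mast cell and basophil program shared the pattern in part. Of 12 genes that make, store or move amines 5 were detected: besides Hdc these were Ddc, Slc22a3, Tph1 and Slc18a2. Slc22a3, a histamine transporter, and Ddc, which makes dopamine and serotonin, averaged 294 ± 36.6 and 266 ± 20.4 CPM. Slc18a2, which loads amines into granules, measured 39, 48.6, 57.4 and 11.6 CPM, and Tph1, the first enzyme of serotonin synthesis, 42.6, 49.2, 43.6 and 12.5 CPM. Vehicle 4 was the lowest in 3 of the 5, Slc22a3, Slc18a2 and Tph1, whereas Hdc in that sample lay within the range of the others.

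Of 11 leukotriene and prostaglandin enzymes 6 were detected, led by Alox5ap at 535, 620.2, 620.1 and 372 CPM and Alox5 at 183, 131, 143 and 69.6 CPM, the pair that starts leukotriene synthesis. Vehicle 4 was again the lowest for both. Of 13 mast cell protease genes 5 were detected, and the list summed to 145, 209 and 221 CPM in Vehicle 1 to 3 and 70.2 CPM in Vehicle 4. Cytokine-inducible targets of STAT5 were less uniform, with Vehicle 4 the lowest in 5 and the highest in 3 of 9 detected genes. The kinase gene Pim1 measured 452, 249, 340.1 and 143 CPM and the feedback inhibitor Socs1 18.7, 12.5, 15.8 and 5.72 CPM, while Socs2 was even at 106, 113, 109 and 115 CPM.

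**Figure D5:**
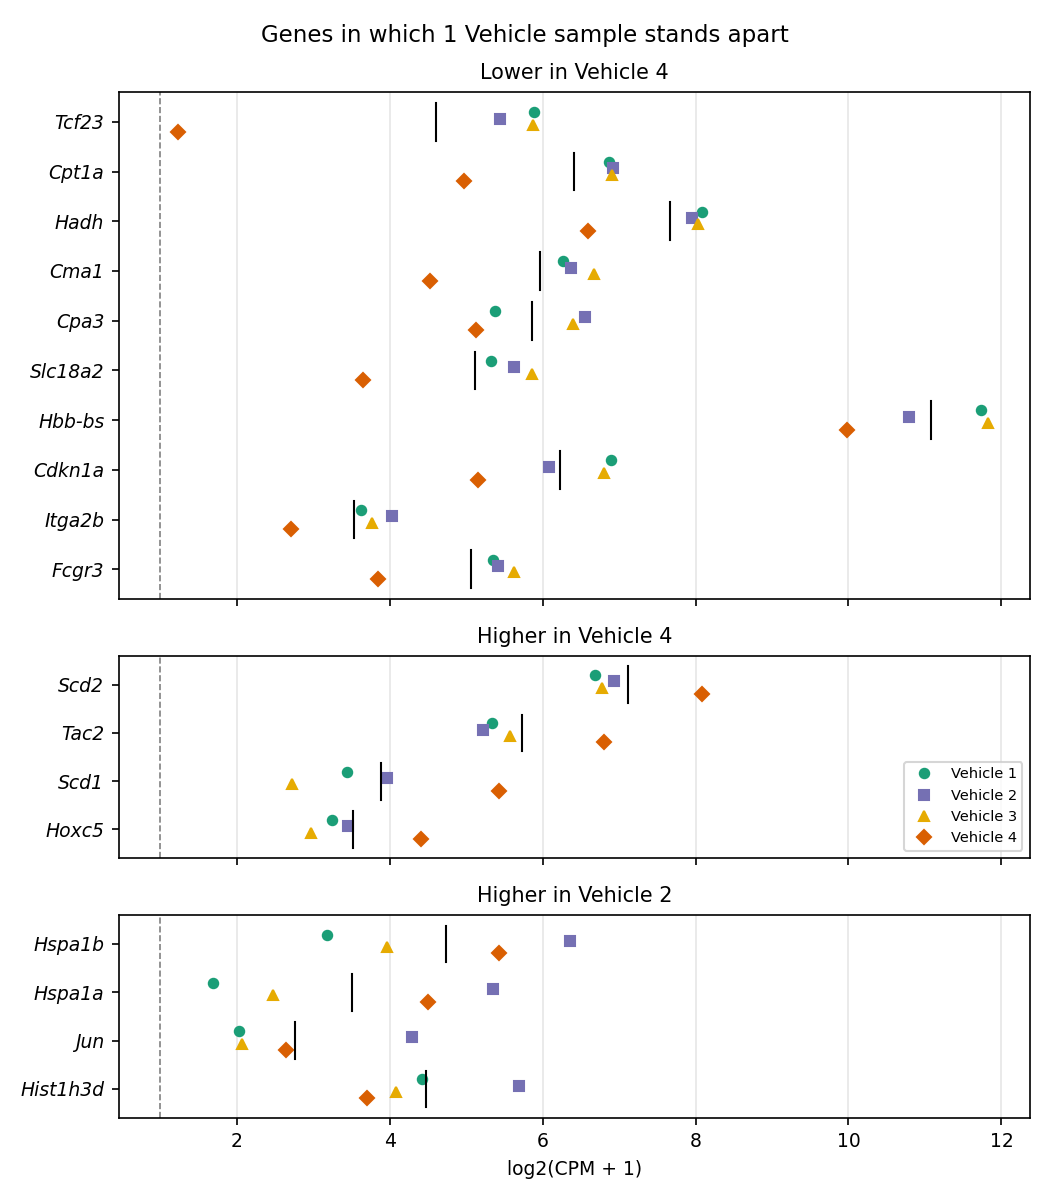
Genes in which 1 Vehicle sample lay outside the range of the other 3, on a log2(CPM + 1) scale, with 1 symbol per sample, a black bar for the mean of the 4 log values and a dashed line at 1 CPM. Tcf23 falls under 2 CPM in Vehicle 4, whereas Hspa1b, Hspa1a, Jun and Hist1h3d are highest in Vehicle 2.

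Vehicle 2 differed from the others in a smaller set, in 9 genes. Hspa1b, which encodes an inducible heat shock protein, measured 8.1, 80.8, 14.6 and 42.1 CPM and its near-identical neighbor Hspa1a 2.23, 40, 4.55 and 21.7 CPM, with Vehicle 4 next to Vehicle 2 in both. The immediate early gene Jun measured 3.07, 18.6, 3.19 and 5.26 CPM and Fos 1.4, 7.87, 0.911 and 1.8 CPM, each highest in Vehicle 2. Other heat shock genes such as Hsph1, at 62.7, 63, 63 and 75.2 CPM, did not share this order. Of 12 heat shock and immediate early genes, a list written after the values had been seen, 9 were detected, and Vehicle 4 was the lowest in 4 of them and the highest in 2.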

How the data were processed

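RNA libraries of sorted cells were made with a 3′ mRNA kit (QuantSeq). The authors deposited raw read counts per gene, and the submitters' processing notes name cutadapt 1.9.1, HISAT2 2.0.4 and featureCounts of Subread 1.5.0-p3 with the mouse build GRCm38 (mm10). Strand use and the treatment of reads that map to several places are not given in the sources used here, so counts of near-identical, overlapping or antisense genes are uncertain.

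Samples were grouped by title. CPM used the column total, over 54838 genes and 6586446 to 7162036 counts per sample. Symbols came from a name table (115 genes without one), and 54123 of 54809 genes shared with GENCODE M21 had the same coordinates. No test between groups was run, as there is 1 group, and pairs of samples were compared by chi-square to find duplicates. Spread was described by the CV beside counting error and by edgeR 4.0.16 dispersions with an intercept only (R 4.3.3), which were tested on simulated data. Outlying values were sought with Dixon's critical value of 0.829 for 4 samples.

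The 22 gene lists held 462 genes, of which 460 were matched. Members and lists were chosen with earlier results of these data known. Named are Kit, Car1, Car2 and Fgf3, the 20 highest genes, the 6 highest and the defining genes of each list, and the 10 most and 5 least variable genes with a mean of at least 50 CPM. Other genes, 8 further lists and the rule for a sample that stands apart (outside the range of the others and 2-fold from their mean after adding 1 CPM, with a maximum of at least 10 CPM, in 8401 genes) were chosen after their values were seen. Alternatives were TMM and DESeq2 1.42.0 library scaling, totals without Gm42418 or mitochondrial genes, other detection limits, other level limits for the spread, and each sample left out. A few genes of the lists are not named here.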

Additional observations from a re-analysis of the deposited data

Results flagged for a closer look

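In 147 values with a mean of at least 10 CPM the highest or lowest sample was compared with the other 3 by Dixon's ratio, and 14 passed the 95% limit. Chance passes about 1 in 20 groups when values are not chosen for their spread. Here they include genes named for their spread, among them Cpt1a, Slc7a8, Scd2 and Tac2, and list sums beside their own members, so the 14 cannot be set against that share. Of the 14 values 12 were set by Vehicle 4 and 2 by Vehicle 3.

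Vehicle 4 was the lowest for Cpt1a, at 30.4 CPM against 116 to 119.9 in the others, for Slc7a8, at 17.75 against 69.5 to 79.7, and for Ly6e, at 344 against 455 to 471. The sum over RUNX and ETO family genes was 720.0 CPM there, against 894 to 925.

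It was the highest for Ccnb1, a mitotic cyclin, at 236 CPM against 168 to 179. Rhd was at 220.1 against 179 to 183, Runx1t1 at 18.2 against 10.5 to 11.4 and Scd2 at 269.5 against 102 to 121. Tac2 was at 110.4 against 36.4 to 46.6 and mt-Nd1 at 9404 against 8186 to 8366. The summed red cell receptor and membrane genes were at 1920.0 CPM against 1737 to 1746, and the summed dendritic cell genes at 70.55 against 50.4 to 53.4.

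Vehicle 3 was the highest for Mcm6, at 426 CPM against 396 to 399, and the lowest for Pbx3, at 49.65 against 60.04 to 61.8. Both gaps were small in size, and no cause was tested for any of these values.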

How the results depend on the processing

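The share of counts in the 20 highest genes was 18.4% and that of ribosomal protein genes 7.84%. Without Gm42418 in the total they were 12.85% and 8.41%, and without mitochondrial genes 13.6% and 8.5%, since these genes then leave the denominator. Of the 136 genes of the 8 lists of other lineages 30 were detected at 1 CPM in all samples, 9 at 5 CPM and 72 at 1 count, so this number depends on the limit. The median CV of 8.94% became 13.9% over all genes with a count in every sample. TMM and DESeq2 scaling moved the mean of no named gene or list by more than 1.01-fold. The spread of the most even genes did depend on the scaling. The SD of Rasa2 was 0.081 CPM by the column total and 0.896 CPM by TMM, and that of Srsf11 was 2.94 and 8.75 CPM.

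With each Vehicle sample left out in turn, the 20 highest genes took 18.1 to 18.8% and ribosomal protein genes 7.71 to 7.92% of counts. The detected regulators and surface molecules numbered 108 to 111 against 108, the detected genes of other lineages 30 to 33, with a sum of 414 to 458 CPM, and the median CV was 6.67 to 9.20%. The lowest CV was without Vehicle 4, and leaving out that sample moved a named gene or list mean by up to 1.43-fold. Low counts limit statements on genes under 1 CPM. No paired analysis was possible because the results describe 1 group and come from no test.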

Other observations

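Genes of the D cyclins and their kinases, which carry cells from the first gap phase into DNA replication, were unequal in level. The list was written after earlier values had been seen. Ccnd2 measured 2215, 2088, 2293 and 1887 CPM in Vehicle 1 to 4 and Cdk6 810.0, 768, 776 and 543 CPM, both lowest in Vehicle 4. Ccnd3 was at 207, 205, 222 and 246 CPM and highest in Vehicle 4, and Cdk4 averaged 98.7 ± 5.74 CPM. Ccnd1 was at 0.977, 0.297, 0.455 and 2.26 CPM and is the only one of the 5 that did not reach 1 CPM in every sample. The sum was 3325, 3165 and 3387 CPM in Vehicle 1 to 3 and 2781 CPM in Vehicle 4.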
